A study of Homo sapiens and Homo sapiens
Mus with 12 samples.

Results

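Receptor tyrosine kinases are cell surface receptors that bind a ligand outside the cell, pair up and phosphorylate each other's tails, which recruits adaptor proteins and switches on the RAS-ERK and PI3K-AKT cascades. Negative feedback genes that ERK itself turns on, such as the Sprouty proteins and the dual specificity phosphatases, then dampen the signal. In bladder cancer these receptors are known as drivers and drug targets, with FGFR3 and ERBB3 typical of luminal tumors and EGFR of basal tumors. The 10 receptors described here were chosen by name as EGFR, ERBB2, ERBB3, FGFR1, FGFR3, MET, AXL, IGF1R, EPHA2 and DDR1, out of 21466 genes with values in cultured cells and 26813 human genes in tumors. All 10 had values in the tumors, and 9 had values in the cultured cells, where EGFR was not analysed here.

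The samples were human UM-UC-3 cells, a line grown from an advanced bladder carcinoma, infected with a control hairpin (shCtrl) or with 1 of 2 hairpins against CDH11 (sh#1 and sh#2), the gene of the cell adhesion protein cadherin-11. Each hairpin is one cell line, so a difference between the lines and an effect of the hairpin cannot be told apart. RNA-seq covered 3 cultured libraries of each line, taken 24 h after seeding, and 5 tumors of each line, taken 4 weeks after subcutaneous injection in Matrigel into male BALB/cAJcl-nu/nu mice, which were 5 weeks old at injection and lack mature T cells. CDH11 knockdown (CDH11 KD) means both hairpins together. The question asked of these data was whether the RNA of the receptors and of their pathway differed in CDH11 KD cells and tumors.

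The cultured libraries held 2273182 to 2777019 counts and the tumors 414849 to 1248977 counts on human genes. CDH11 was near the limit of detection in culture, with 2, 4 and 4 counts in shCtrl, 0, 0 and 1 for sh#1, then 1, 2 and 0 for sh#2, and had 5 to 32, 1 to 9 and 2 to 14 counts in the tumors of these groups. Of the cell line markers, KRT8, KRT18, VIM and ZEB1 had over 190 counts in every cultured library, and EPCAM and CDH1 had 0. Of 6 epithelial markers 3 passed the low-count filter, and of 6 mesenchymal markers 6 did. Of 10 urothelial markers only UPK1A passed, and it differed between the lines. Its log2 fold change against shCtrl was 3.39 with sh#2 (edgeR q under 0.05) and 0.39 with sh#1 (not under 0.05). The value of sh#1 against sh#2 was -3.0 (edgeR q under 0.05). Library mix 1 held the shCtrl tumors, mix 2 those of sh#1 and mix 3 those of sh#2, so mix and group cannot be told apart. Mouse counts made up 10.4 to 14.4% of the counts of shCtrl tumors, 10.4 to 30.0% of sh#1 and 13.0 to 18.8% of sh#2 tumors. Sh#1 tumor 1 stood apart, with the highest mouse share and the lowest human total. In tumors and cultures alike, fewer cells of a type and less RNA per cell cannot be told apart.

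AXL, the receptor for GAS6 that is known for mesenchymal tumor cells, was the most abundant of the receptors. In normalized CPM (library-scaled counts) per kilobase of the canonical transcript, its level in shCtrl cells was 55.7 ± 1.84 (SD, n = 3). FGFR1, a fibroblast growth factor receptor, followed with 18.4 ± 0.785, EPHA2, the ephrin-A receptor, with 17.3 ± 2.24, and MET, the receptor for hepatocyte growth factor, with 15.9 ± 1.54. The ranges of FGFR1 and EPHA2 overlapped, as did those of EPHA2 and MET. DDR1, a collagen receptor, stood at 4.35 ± 0.589, ERBB2, the partner receptor of the EGF family, at 2.65 ± 0.354, and IGF1R, the receptor for insulin-like growth factors, at 0.895 ± 0.126. The luminal receptors ERBB3 and FGFR3 were the lowest, at 0.445 ± 0.283 and 0.334 ± 0.313 per kilobase, and their ranges overlapped. They had at most 11 and 7 counts in any cultured library and did not pass the low-count filter.

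The shCtrl tumors held a similar order within their own table, which was normalized separately from that of the cultured cells. AXL led with 62.1 ± 9.96 (SD, n = 5) normalized CPM per kilobase, ahead of FGFR1 at 26.1 ± 3.64, MET at 19.4 ± 2.69 and EPHA2 at 16.3 ± 3.3. The ranges of FGFR1 and MET overlapped, and so did those of MET and EPHA2. EGFR, the receptor of epidermal growth factor and its relatives, came next at 7.3 ± 1.76, and its range overlapped that of DDR1 at 4.79 ± 1.73. IGF1R stood at 2.44 ± 0.379, ERBB2 at 1.78 ± 0.675, ERBB3 at 1.37 ± 0.546 and FGFR3 at 0.334 ± 0.424. Over the lower ranks, each neighbouring pair from DDR1 down overlapped in range. ERBB2, ERBB3 and FGFR3 had at most 15, 14 and 5 counts in any tumor and did not pass the low-count filter there. The sources used here do not state whether reads came from whole transcripts or from their 3′ ends, and in the latter case counts would not scale with length. Without the division by length MET stood ahead of FGFR1 and EPHA2 in the shCtrl cells, and EGFR ahead of EPHA2 and IGF1R ahead of DDR1 in the shCtrl tumors.

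Promoter sequence is shown for receptors whose promoter holds letters that match a site of a factor linked to this pathway or to low oxygen. TGANTCA, with any base at N, loosely matches the site of AP-1, the FOS and JUN family of transcription factors downstream of ERK. ACGTG is the core bound by hypoxia-inducible factors and, within CACGTG, by E-box proteins. Binding was not tested. RefSeq promoter windows of build GRCh38.p14, which run from 250 bases before to 50 bases after the RefSeq gene start, were found for 8 of the 10 receptors. On both strands, TGANTCA was present in 7.71% and ACGTG in 21.4% of all 35116 windows of that length. Among the 8 receptors, ERBB2 alone held TGANTCA, with T at N. MET and IGF1R held ACGTG, in MET as part of CACGTG beginning 3 bases after the start and in IGF1R 146 bases before it. The ERBB2 match begins 222 bases before the RefSeq start at 39688094, which lies 180 bases downstream of the GENCODE gene start, and thus 42 bases before the GENCODE start. EGFR, FGFR3, AXL, EPHA2 and DDR1 held neither of these letters in this window. The matches are given below in capitals, on the plus strand, from chr17:39687861-39687889, chr7:116672188-116672215 and chr15:98648382-98648408. In IGF1R the ACGTG lies on the minus strand, so its capitals read CACGT.
ERBB2: gggagcggaagTGATTCAgagcgccccca
MET: aggcagacagaCACGTGctggggcgggc
IGF1R: gctccgctccgCACGTcttggggaacc

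In cultured cells ERBB2 was lower with sh#2, AXL was lower with sh#1 alone, and EPHA2 was higher with sh#1, while FGFR1, MET, IGF1R and DDR1 did not pass the test in any comparison. Values per library are normalized CPM, that is counts scaled by library size and TMM factor, and differences are log2 fold changes from edgeR's quasi-likelihood test with standard errors (SE) and Benjamini-Hochberg adjusted p-values over all 9859 genes tested (q values, called under 0.05). With both hairpins together against shCtrl, 0 of the 7 receptors tested were higher, against 9.12% of all genes tested, and 0 were lower, against 8.32%. At an unadjusted p under 0.05 there were 2, ERBB2 and EPHA2, and DESeq2 also called 0. With all 3 groups in one model and the average of the hairpins tested, edgeR called 1 higher, EPHA2, and 2 lower, ERBB2 and AXL, against 16.5% and 16.8% of all genes in that model. With sh#1 alone, 1 receptor was higher and 1 lower, against 11.8% and 10.6% of all genes, and with sh#2 alone 0 were higher and 1 lower, against 19.5% and 18.8%. Between the hairpins, 0 receptors were higher and 1 was lower in sh#1 than in sh#2, against 11.2% and 13.5% of all genes. With 7 receptors, 1 call is a share close to that background. All comparisons with shCtrl share its libraries. Nothing in the labels says that the cultured libraries of a group came from separate cultures, so the p-values measure the spread between these samples, which may be technical.

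**Figure D1:**
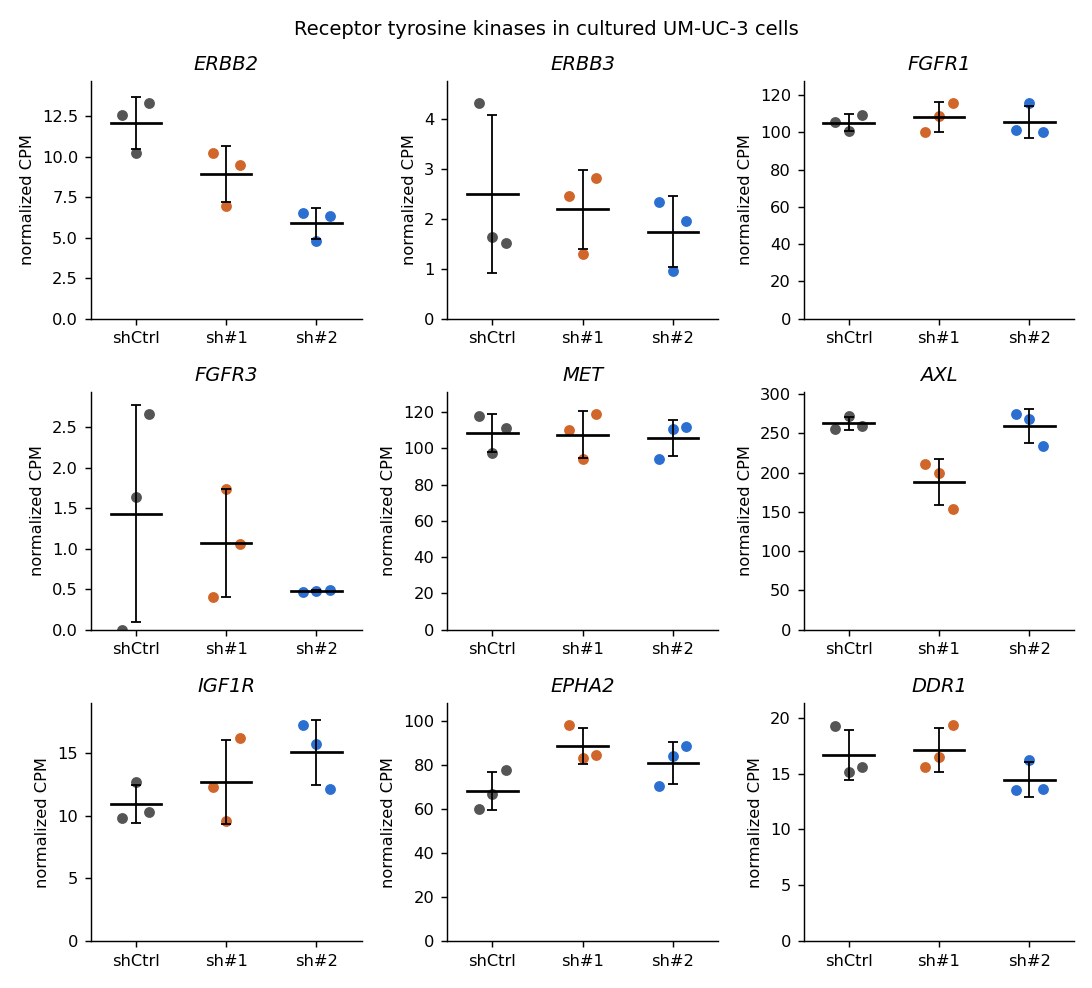
Normalized CPM (linear axes from 0) of the 9 receptors with values in cultured UM-UC-3 cells, 3 libraries each of shCtrl, sh#1 and sh#2; points are libraries, black lines the mean and bars the SD. AXL in sh#1 sits between 154 and 210.3, below every library of the other groups, and ERBB2 in sh#2 between 4.78 and 6.53, below every other library.

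AXL (chromosome 19, 41219223 to 41261766 of hg38, plus strand) differed between the hairpins. Its normalized CPM was 255, 272 and 259.9 in shCtrl, 210.3, 199.5 and 154 for sh#1, then 275, 268 and 234 for sh#2. Every sh#1 library was below every shCtrl and every sh#2 library, while sh#2 and shCtrl overlapped. AXL fell by 0.49 on the log2 scale with sh#1 (SE 0.084, edgeR q = 2.81e-05), and the difference of sh#1 from sh#2 was -0.47 (SE 0.085, edgeR q = 6.2e-05). With sh#2 the value was -0.02, with a 95% interval from -0.18 to 0.14. Both calls with sh#1 held in all 15 alternatives, with log2 fold changes from -0.57 to -0.35 against shCtrl.

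ERBB2 (chromosome 17, 39687914 to 39730426, plus strand), which has no ligand of its own and signals with the other members of the EGF receptor family, had few counts. Its normalized CPM was 12.6, 10.3 and 13.3 in shCtrl, 10.3, 6.95 and 9.51 for sh#1, then 6.53, 4.78 and 6.33 for sh#2, from 10 to 35 counts per library. The sh#2 libraries lay below all others, and the highest sh#1 library was just below the lowest shCtrl library. ERBB2 fell by 1.03 on the log2 scale with sh#2 (SE 0.29, edgeR q = 0.00301), a call that held in all 15 alternatives. The log2 fold change with sh#1 was -0.43 (SE 0.25, edgeR q = 0.236), and the difference between the hairpins was 0.60 (edgeR q = 0.142), so the hairpins are not shown to differ. With both hairpins together the value was -0.68 (SE 0.24, edgeR q = 0.0607), which was past the threshold in 4 of 15 alternatives. The neighbouring gene MIEN1, which overlaps ERBB2 on the opposite strand with up to 113 counts, had a value of -0.35 in the same comparison (edgeR q = 0.112), and the use of strand in counting is not stated, so reads of the overlap cannot be assigned to either gene.

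EPHA2 (chromosome 1, 16124337 to 16156069, minus strand), the receptor for ephrin-A ligands on neighbouring cells, had normalized CPM of 60.2, 66.8 and 77.7 in shCtrl, 98.4, 83.5 and 84.9 for sh#1, then 70.5, 84.1 and 88.6 for sh#2. All sh#1 libraries were above all shCtrl libraries, and sh#2 overlapped shCtrl. EPHA2 rose by 0.38 on the log2 scale with sh#1 (SE 0.11, edgeR q = 0.00733). The call was lost without shCtrl replicate 1, at q = 0.0653, and without sh#1 replicate 1, at q = 0.0727. The value with sh#2 was 0.24 (SE 0.11, edgeR q = 0.0811), and it was past the threshold without shCtrl replicate 3 or sh#2 replicate 1. The difference between the hairpins was 0.13, with a 95% interval from -0.08 to 0.35.

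The other receptors tested in culture had values close to those of shCtrl or too wide an error for a call. FGFR1 had 105, 100.5 and 109 normalized CPM in shCtrl, 100.0, 109 and 116 for sh#1, then 101, 116 and 100.3 for sh#2, and the groups overlapped throughout. Its log2 fold change with both hairpins was 0.03, with a 95% interval from -0.16 to 0.21. MET overlapped in the same way, with 118, 97.2 and 111 normalized CPM in shCtrl, 109.9, 93.9 and 119 for sh#1, then 94.3, 111 and 112 for sh#2, and its value was -0.03, from -0.23 to 0.18. IGF1R had 9.84, 12.7 and 10.3 normalized CPM in shCtrl, 12.3, 9.56 and 16.2 for sh#1, then 17.3, 15.8 and 12.2 for sh#2, and its log2 fold change was 0.34, from -0.09 to 0.78 (edgeR q = 0.302). DDR1 ranged from 15.2 to 19.3 in shCtrl and from 13.5 to 19.4 in CDH11 KD cells, with a value of -0.07, from -0.42 to 0.28.

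The gene pattern most like that of ERBB2, the receptor with the smallest p in cultured CDH11 KD cells, was sought among 5397 genes averaging 50 counts or more, by the distance between the pairs of log2 fold changes with sh#1 and sh#2 over the 9 cultured libraries. The nearest was DCTPP1, a nucleotide pyrophosphatase, with -0.43 and -1.04 and a distance of 0.013. MAP3K4, a kinase of stress signaling, followed with -0.43 and -1.01 at 0.0227, and IGFBP7, a secreted binding protein of growth factors, with -0.44 and -1.05 at 0.023. These distances are far below the SE of the ERBB2 values, 0.25 with sh#1 and 0.29 with sh#2, from 10 to 35 counts per library. Which genes are nearest is thus uncertain.

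In the tumors MET was higher with sh#2, and no other receptor passed the test. The threshold was a q value under 0.1 over 9184 human genes tested. With both hairpins together 0 of 7 receptors were higher and 0 lower, against 0.697% and 0.817% of all genes tested, with 1 (MET) at an unadjusted p under 0.05 and 0 calls by DESeq2. With sh#1, 0 were higher and 0 lower, against 0.773% and 0.708%, with 2 (IGF1R and EPHA2) at an unadjusted p under 0.05 and 0 by DESeq2. With sh#2, 1 was higher and 0 lower, against 1.36% and 1.32% of all genes. Between the hairpins 0 were higher and 0 lower, against 0.642% and 0.544%, with 1 (AXL) at an unadjusted p under 0.05 and 0 by DESeq2.

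**Figure D2:**
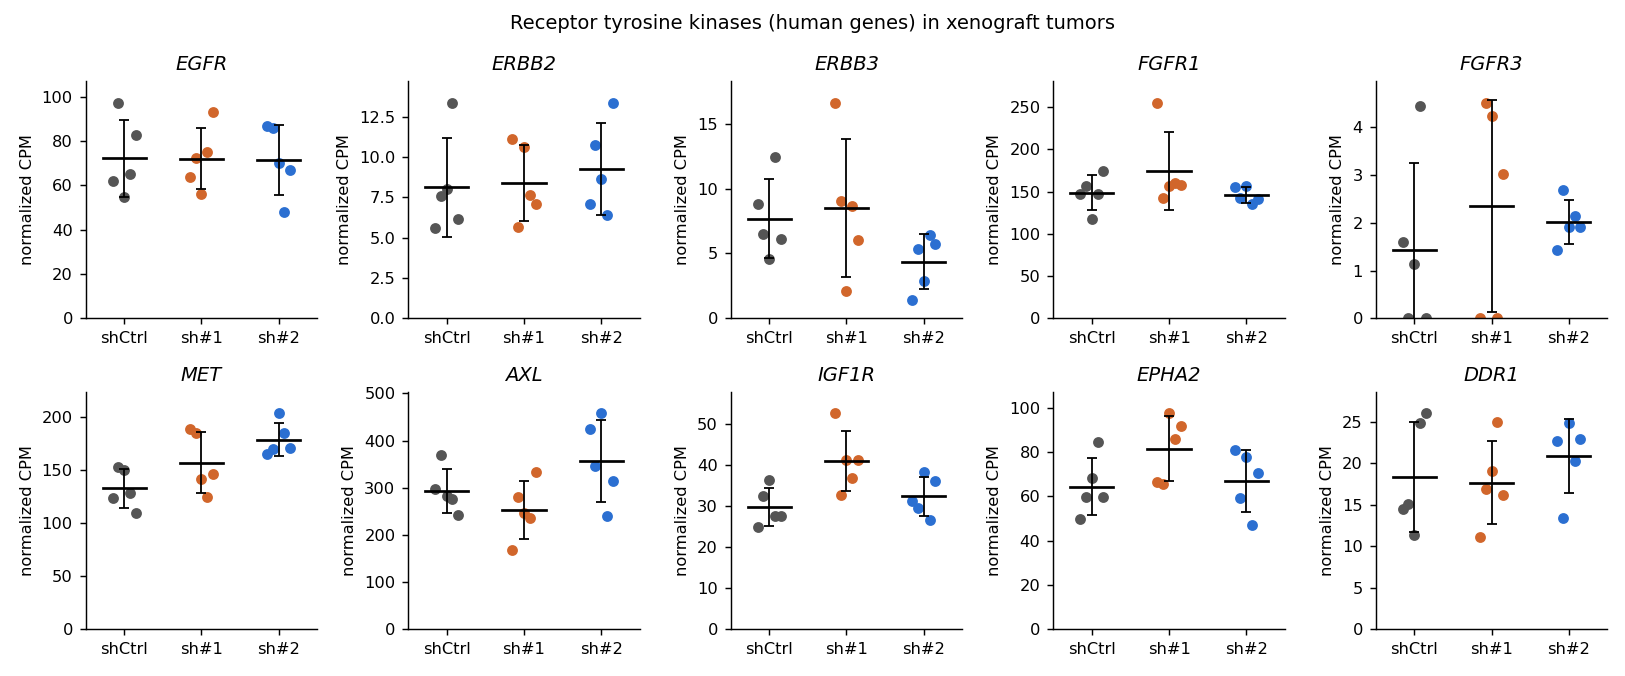
Normalized CPM (linear axes from 0) of the 10 receptors, human genes, in xenograft tumors, 5 each of shCtrl, sh#1 and sh#2; points are tumors, black lines the mean and bars the SD. MET in sh#2 tumors sits between 165 and 203, above all shCtrl tumors, and FGFR1 in sh#1 tumor 1 is at 255.

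MET (chromosome 7, 116672196 to 116798377, plus strand) had normalized CPM of 124, 153, 149, 128 and 109 in the shCtrl tumors. The sh#1 tumors had 189, 184, 141, 124 and 145, and the sh#2 tumors 165, 169, 203, 185 and 170.0. All sh#2 tumors were above all shCtrl tumors, and the sh#1 tumors overlapped both. MET rose by 0.43 on the log2 scale with sh#2 (SE 0.13, edgeR q = 0.0849). The call was lost in 10 of 22 alternatives, among them no low-count filter (q = 0.206), a term for the mouse share relative to human counts (q = 0.257) and the fits without any 1 of sh#2 tumors 1 to 4, shCtrl tumors 1, 4 and 5 or sh#1 tumor 5, with log2 fold changes of 0.33 to 0.49 over all of them. With sh#1 the value was 0.22 (SE 0.13, edgeR q = 0.538), and with both hairpins 0.33 (SE 0.12, edgeR q = 0.205), with 9 of 10 CDH11 KD tumors above the shCtrl mean. The difference between the hairpins was -0.21, with a 95% interval from -0.47 to 0.04.

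AXL ranged widely between tumors. Its normalized CPM was 297, 369, 282, 275 and 242 in shCtrl, 166, 280.3, 247, 236 and 332 for sh#1, then 424, 347, 458, 239 and 315 for sh#2 tumors. The 3 groups overlapped, and the lowest value was that of sh#1 tumor 1. Against shCtrl, sh#1 gave a log2 fold change of -0.19 and sh#2 one of 0.28, each with a 95% interval that held 0. The difference of sh#1 from sh#2 was -0.48 (SE 0.17, edgeR q = 0.272), which did not pass the threshold except with no low-count filter (q = 0.0588) and without sh#2 tumor 4 (q = 0.0772), and it was -0.37 without sh#1 tumor 1 (q = 0.438).

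IGF1R and EPHA2 were above the shCtrl mean in all 5 sh#1 tumors. IGF1R had normalized CPM of 24.9, 32.5, 36.5, 27.6 and 27.6 in shCtrl, 52.7, 32.8, 41.4, 37.0 and 41.4 for sh#1, then 31.3, 29.6, 38.3, 26.7 and 36.3 for sh#2 tumors. The groups overlapped, and the log2 fold change with sh#1 was 0.43 (SE 0.18, edgeR q = 0.345). EPHA2 had 49.8, 59.5, 68.4, 84.5 and 59.7 in shCtrl, 66.6, 65.6, 97.6, 85.9 and 91.9 for sh#1, then 81.0, 59.1, 77.6, 47.0 and 70.7 for sh#2 tumors. These groups overlapped too, and its value with sh#1 was 0.36 (SE 0.17, edgeR q = 0.391).

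EGFR had 61.8, 97.4, 54.7, 64.9 and 82.7 normalized CPM in shCtrl, 63.8, 72.3, 56.2, 75.0 and 92.9 for sh#1, then 86.7, 86.0, 69.9, 48.0 and 66.8 for sh#2 tumors. The groups spanned the same range, with a log2 fold change in CDH11 KD of 0.0043 and a 95% interval from -0.29 to 0.30. FGFR1 had 147, 157, 117, 147 and 175 in shCtrl, 255, 142, 157, 159.9 and 158 for sh#1, then 155, 142, 157, 136 and 141 for sh#2 tumors. Sh#1 tumor 1 was the high one. With sh#1 the value was 0.20 (edgeR q = 0.617) and, without that tumor, 0.07 (edgeR q = 0.909). DDR1 ranged from 11.4 to 26.0 in shCtrl tumors, while sh#1 tumors reached 25.0 and sh#2 tumors 24.9, and its value in CDH11 KD was 0.11, from -0.32 to 0.55. The 3 receptors below the filter ranged from 5.62 to 13.4 normalized CPM (ERBB2), from 1.42 to 16.6 (ERBB3) and from 0 to 4.52 (FGFR3) over the 15 tumors. Fitted with no low-count filter, ERBB2 with sh#2 had a log2 fold change of 0.07 in tumors, with a 95% interval from -0.69 to 0.84, and a mean of 9.25 normalized CPM against 8.13 in shCtrl. In that fit ERBB3 with sh#2 was at -0.90, from -1.81 to 0.00473 (edgeR q = 0.597), and FGFR3 at 0.25, from -1.28 to 1.78.

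**Figure D3:**
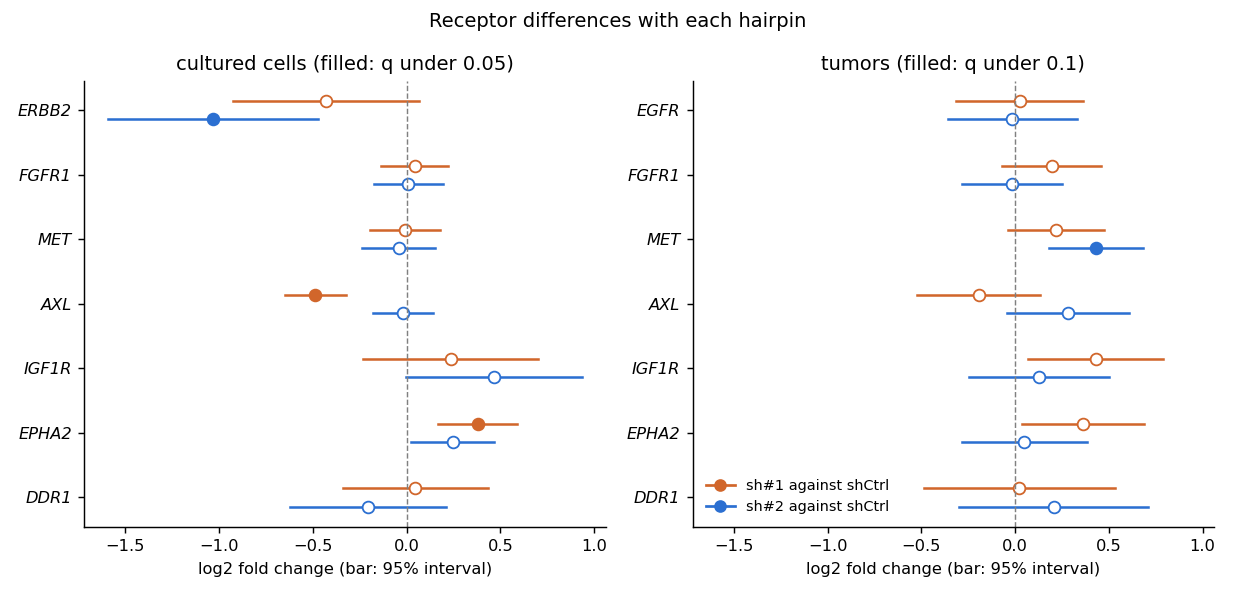
Log2 fold change of each tested receptor with sh#1 and sh#2 against shCtrl, in cultured cells on the left and tumors on the right; bars are 95% intervals and filled points are past the threshold. AXL and EPHA2 with sh#1 and ERBB2 with sh#2 are filled in culture, and MET with sh#2 in tumors.

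The effect of CDH11 KD in culture was compared with that in tumors for the 6 receptors tested in both systems. Each effect was taken within its own table as a difference of mean log2 CPM. The test was a two-sided exact permutation of the group labels within both systems. Its null is no effect in either system, so a low p does not by itself show that the effects differ. For MET the effect was -0.03 in culture and 0.33 in tumors, a difference of -0.36 (exact permutation p = 0.033, 0.198 after Benjamini-Hochberg adjustment over the 6). For AXL the effects were -0.26 and 0.01, with an adjusted p of 0.766 in the same exact permutation test. EPHA2 had effects of 0.31 and 0.19, and IGF1R of 0.30 and 0.27, with adjusted p of 0.766 and 0.908 in that permutation test. No receptor passed after adjustment.

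The wider pathway was described with 8 lists of 182 genes, of which 114 were tested in culture and 105 in tumors. The lists were chosen with earlier results of these data known, so the shares called are a description and not a test. In CDH11 KD cells 18 of the 114 genes were higher and 10 lower, and DESeq2 called 19 and 6. Against the background of 9.12% and 8.32%, 7 of 13 genes that ERK induces were higher and 0 lower by edgeR, with 9 of the 13 at an unadjusted p under 0.05 and a median log2 fold change of 1.02, against 0.000166 over all genes. IER3, an immediate early gene, rose from 182, 192 and 170.3 normalized CPM in shCtrl to 934, 1147 and 868 for sh#1, then 697, 711 and 547 for sh#2, by 2.17 on the log2 scale (SE 0.22, edgeR q = 9.95e-05). PLAUR, the urokinase receptor, had 172, 198 and 195 in shCtrl, 482, 506 and 449 for sh#1, then 622, 582 and 526 for sh#2, a rise of 1.49 (SE 0.11, edgeR q = 4.75e-08). For both genes no CDH11 KD library overlapped shCtrl. PHLDA1 rose by 1.19, and the transcription factor genes EGR1, FOSL1 and MYC and the survival gene MCL1 by 1.37, 1.17, 1.02 and 1.15. The rise was not shared equally by the hairpins. With sh#1, 10 of the 13 genes were called higher and 0 lower, against 11.8% and 10.6% of all genes. With sh#2, 8 were called higher and 2 lower, against 19.5% and 18.8%. In the direct test of the hairpins, 7 of the 13 had more RNA with sh#1 and 2 had more with sh#2. The shares of all genes in that test were 11.2% and 13.5%. VGF was higher with sh#1 (0.57) and lower with sh#2 (-0.60). IER2 was lower with sh#2 (-0.70), and was not called lower with sh#1. The rise of EGR1 was lost without shCtrl replicate 3 (q = 0.0515).

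Of 19 feedback inhibitors and degradation genes tested in culture, 5 were higher and 1 lower, against 9.12% and 8.32% of all genes, with a median of 0.14. SPRY1, a Sprouty inhibitor of receptor signaling, was at 1.57, 2.87 and 1.14 normalized CPM in shCtrl, at 14.8, 16.5 and 14.1 in sh#1 and at 9.8, 5.73 and 11.2 in sh#2, a rise of 2.68 (SE 0.40, edgeR q = 0.000181) that rests on a mean of 20.4 counts. DUSP5, a nuclear phosphatase of ERK, was at 36.6, 34.0 and 35.8 in shCtrl, 116, 137 and 149.7 for sh#1, then 112, 129 and 137 for sh#2, a rise of 1.87 (SE 0.12, edgeR q = 9.7e-09). Neither gene overlapped shCtrl in any CDH11 KD library. ERRFI1, which binds and inhibits the EGF receptor family, rose by 1.02, DUSP6, a cytoplasmic phosphatase of ERK, by 0.90 and SPRED2 by 0.74, while DUSP7, another ERK phosphatase, fell by 0.82. The call of SPRED2 was lost without any 1 shCtrl replicate (q up to 0.107), and that of DUSP7 likewise (q up to 0.0993) and with the replicate number as a block.

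Among the ligands 13 of 28 were tested in culture, 4 were higher and 1 was lower, against 9.12% and 8.32% of all genes, with a median of 0.41. EFNA3, an ephrin-A ligand of the EPH receptors, was at 3.54, 6.97 and 7.24 normalized CPM in shCtrl, at 18.0, 20.4 and 20.8 in sh#1 and at 29.9, 33.4 and 33.6 in sh#2, a rise of 2.11 (SE 0.28, edgeR q = 7.36e-05). HBEGF, a ligand of EGFR, was at 27.6, 21.3 and 29.0 in shCtrl, 47.6, 48.7 and 51.8 for sh#1, then 66.7, 55.4 and 51.1 for sh#2, a rise of 1.04 (SE 0.15, edgeR q = 0.000122). All CDH11 KD libraries were above shCtrl for both ligands. IGF2, a ligand of IGF1R, rose by 1.00 and NRG1, a ligand of ERBB3, by 0.55, and EFNA5 fell by 0.47, a call lost without shCtrl replicate 1 (q = 0.172) or 3 (q = 0.0797) and with the block. The EGFR ligands TGFA and EREG were higher with sh#1, by 1.41 and 1.15, and were also higher in sh#1 than in sh#2, by 0.85 (edgeR q = 0.041) and 1.48 (edgeR q = 1.79e-08). The difference of TGFA between the hairpins held in 7 of 14 alternatives, and was lost with DESeq2 and without any 1 library of sh#1 or sh#2 (q up to 0.179). GAS6, the ligand of AXL, had a value of -0.32 in CDH11 KD (edgeR q = 0.229).

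For the lists that follow, the background in the same comparison was again 9.12% of all genes higher and 8.32% lower. Of 22 RAS-ERK and AKT kinases 1 was higher and 3 were lower in culture, with MAP2K1, the ERK kinase MEK1, higher (0.51), and KSR1, a scaffold of the RAF-MEK-ERK cascade, lower (-1.2), PDPK1 at -0.62 and AKT2 at -0.54. Of 20 adaptors 0 were higher and 2 lower, PLCG1 (-0.63) and the PI3K subunit gene PIK3R2 (-0.44). Of 12 genes listed by family as other receptor tyrosine kinases 0 were higher and 2 lower, the WNT receptor RYK (-0.40) and LMTK2 (-1.38). Among 4 collagen genes, which encode ligands of DDR1, COL4A2 was lower (-0.56), and among 11 sheddases and chaperones the HSP90 gene HSP90AA1 was higher (0.60). The hairpins differed here. Of the 4 collagen genes 0 were higher and 1 lower with sh#1, and 2 higher and 0 lower with sh#2. Of the 11 sheddases and chaperones 2 were higher and 1 lower with sh#1, and 6 higher and 0 lower with sh#2. Of all genes, 11.8% were higher and 10.6% lower with sh#1, and 19.5% and 18.8% with sh#2. The calls of MAP2K1, KSR1, AKT2 and HSP90AA1 held in all 15 alternatives. Those of PLCG1, RYK and PDPK1 held in 6 of 15 and that of PIK3R2 in 7 of 15, with q up to 0.181, 0.179, 0.178 and 0.17 in the others, DESeq2 among them. LMTK2 was lost without shCtrl replicate 1 (q = 0.187) and with the block, and COL4A2 without any 1 shCtrl replicate (q up to 0.125).

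**Figure D4:**
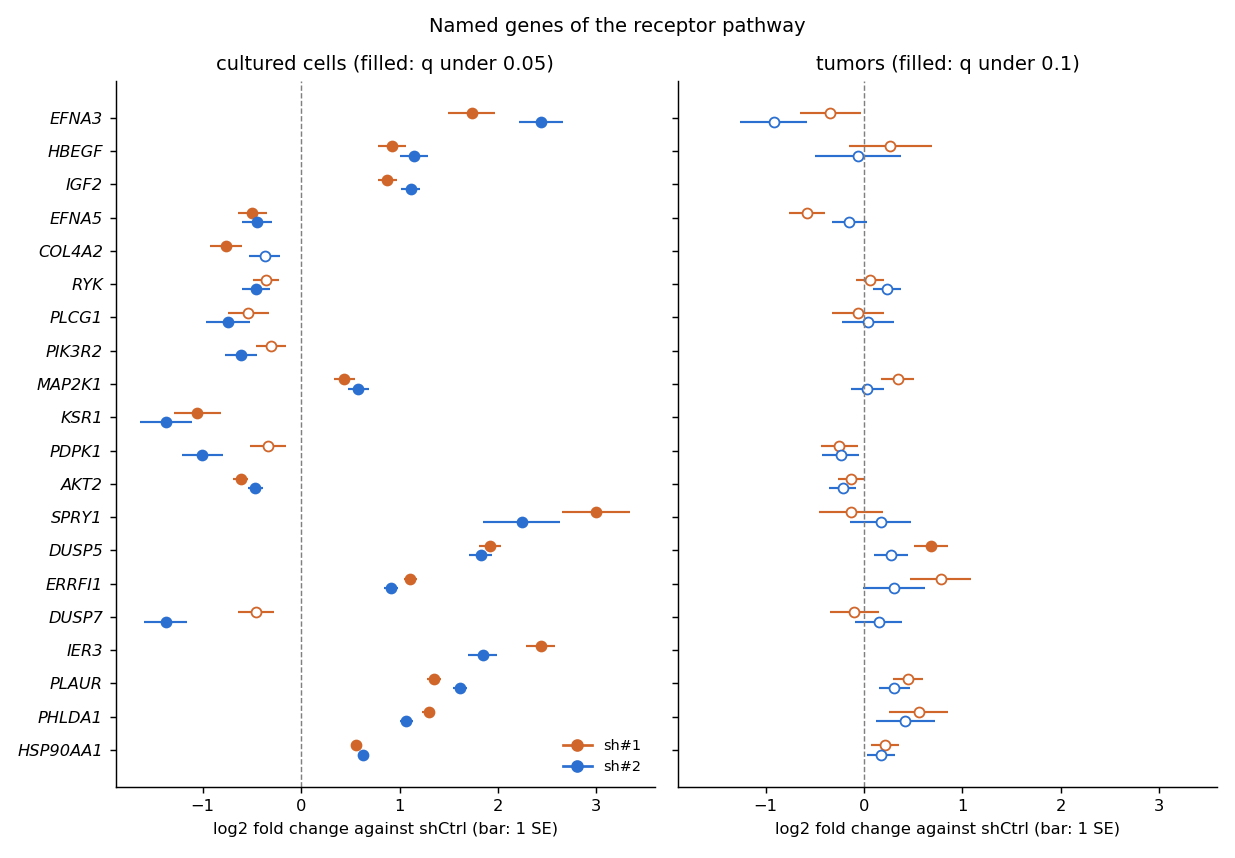
Log2 fold change against shCtrl with sh#1 and sh#2 of the pathway genes named by rule in culture, with the same genes in tumors where they were tested; bars are 1 SE and filled points are past the threshold. DUSP5 with sh#1 (0.68) is the one filled point in tumors, and the tumor values of EFNA3 are below 0.

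In the tumors 0 of the 105 pathway genes tested were higher and 2 were lower in CDH11 KD, against 0.697% and 0.817% of all genes, with DESeq2 calling 0 and 3. Both were ERK-responsive genes. CCND1, which encodes cyclin D1, had normalized CPM of 871, 1115, 844, 947 and 731 in shCtrl, 427, 669, 655, 617 and 627 for sh#1, then 864, 724, 814, 563 and 603 for sh#2 tumors, and fell by 0.45 on the log2 scale (SE 0.12, edgeR q = 0.0631). IER2 had 236, 247, 263, 235 and 193 in shCtrl, 164, 205, 163, 147 and 127 for sh#1, then 185, 180.0, 173, 192 and 214 for sh#2 tumors, and fell by 0.43 (SE 0.11, edgeR q = 0.053). All sh#1 tumors were below all shCtrl tumors for CCND1, and sh#2 tumors overlapped shCtrl for both genes. Each call held in 18 of 22 alternatives. CCND1 was lost without shCtrl tumor 1, 2 or 4 (q up to 0.221) and with the mouse term (q = 0.191), and IER2 without shCtrl tumor 1, 2, 3 or 4 (q up to 0.147). With sh#1, where 0.773% of all genes were higher, the feedback gene DUSP5 rose by 0.68 (edgeR q = 0.0379), with 158, 127, 95.5, 99.0 and 116 normalized CPM against 51.4, 102.8, 93.5, 64.9 and 49.0 in shCtrl. The call held in 17 of 22 alternatives and was lost without shCtrl tumor 1 or 4, without sh#1 tumor 2 or 5 and with only the groups compared (q up to 0.189). With sh#2, where 1.36% of all genes were higher and 1.32% lower, the ephrin-B receptor EPHB4 rose by 0.58 (edgeR q = 0.0976) and the immediate early gene EGR1 fell by 1.53, with 58.3, 76.6, 69.0, 43.8 and 59.2 normalized CPM against 143, 207, 311, 109 and 121 in shCtrl. The call of EPHB4 held in 4 of 21 alternatives (q up to 0.279) and that of EGR1 in 11 of 22, being lost with no low-count filter, without any 1 sh#2 tumor, and without shCtrl tumor 1, 2 or 3 or sh#1 tumor 3 or 5 (q up to 0.184). The adaptor gene NCK2 rose by 0.79 with sh#2 (edgeR q = 0.032), a call lost without shCtrl tumor 1 (q = 0.136). Of the genes that rose in culture, SPRY1 had a tumor value of 0.02 (edgeR q = 0.987), EFNA3 one of -0.60 (edgeR q = 0.356) and PLAUR one of 0.38 (edgeR q = 0.22). IER3 did not pass the low-count filter in the tumors, with 0.802 to 5.7 normalized CPM in shCtrl and 1.07 to 25.0 in CDH11 KD tumors, which overlapped.

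The host cells of the tumors carry the mouse copies of the receptors and ligands. Of 10 mouse receptors 3 passed the low-count filter, Axl, Fgfr1 and Igf1r, with 4 to 22, 3 to 28 and 4 to 16 counts per tumor. In sh#1 tumor 1 mouse Fgfr1 had 3 counts, against 92 counts of human FGFR1, and mouse Axl 17 counts against 60 of human AXL. Of 28 ligands 2 passed, Igf1 with 18 to 91 and Gas6 with 5 to 59 counts, and all 8 collagen genes did, with 70 to 1724 counts of Col1a1. In CDH11 KD 0 of 1669 mouse genes were called, which is 0% of those tested by edgeR, with 92 at an unadjusted p under 0.05 and 1 called by DESeq2, while none of the 5 receptors and ligands was called by either or had an unadjusted p under 0.05. Fgfr1 was at -0.12 and Axl at -0.24, with edgeR q of 0.99 and 0.957. With sh#1 alone Fgfr1 was at -1.04 (edgeR q = 0.493).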

How the data were processed

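RNA-seq of 9 cultured libraries and 15 tumors was used, in groups given by the labels. The authors deposited unnormalized counts per gene. They trimmed 75 bp single reads with CLC Genomics Workbench (cultured cells) or Trim Galore (tumors) and mapped them to hg38 with RaNAseq or HISAT2. The counting program, its use of strand or molecular identifiers and the separation of human from mouse reads are not given in the sources used here. Of 21479 cultured genes 13 were not analysed here, EGFR among them.

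Counts were fitted across each whole table with edgeR 4.0.16 in R 4.3.3 (TMM, filterByExpr, robust quasi-likelihood test, Benjamini-Hochberg adjustment), with thresholds of 0.05 in culture and 0.1 in tumors. CDH11 KD was a fit of 2 groups, and each hairpin came from a fit of 3 groups. Intervals are 1.96 SE to each side. Gene positions and canonical transcript lengths are from GENCODE, and promoters from RefSeq. Counts were simulated from the spread fitted to these data, with 200 genes averaging 20 counts or more changed by 1.5 on the log2 scale. Each of these genes changed alike in both hairpins. The CDH11 KD fit recovered 100% of them on 9681 cultured genes with 3.38% of calls false, and 100% with 7.83% false on 9029 tumor genes. For single hairpins, where the receptor calls arose, recovery in culture was 100% (sh#1) and 99% (sh#2), with 5.66% and 6.6% false. In tumors it was 97.5% (sh#1) and 99% (sh#2), with 5.8% and 8.76% false. Each called receptor changed by less than 1.5, and recovery of such smaller changes was not tested. Nor was recovery of a change in 1 hairpin alone, so these figures do not bear on the receptor calls.

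All 10 receptors are named, and from each list up to 3 genes higher and 3 lower by size of change among called genes averaging 20 counts or more and moving the same way with each hairpin. Values of further list genes were picked once seen. The members and lists were chosen with earlier results of these data known. Alternatives were DESeq2 1.42.0, upper quartile normalization, other low-count filters, leaving out single replicates, a block for replicate number, other groupings of the fit and, in tumors, a covariate for mouse relative to human counts. No pair of replicates agreed within sampling noise, so no library was taken as a copy of another, and every library counted as a replicate. That check cannot show that libraries came from separate cultures.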

Additional observations from a re-analysis of the deposited data

Results flagged for a closer look

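Human FGFR1 reached 255 normalized CPM in sh#1 tumor 1 while the other sh#1 tumors had 142 to 159.9, a gap past Dixon's limit for 5 samples. This was 1 of 30 groups of tumors examined, and chance marks about 1 in 20. That tumor also had the largest share of mouse counts, 30.0%, and the fewest human counts, 414849, and the part of these in the value was not tested. The effect of sh#1 on AXL in cultured cells differed from that of sh#2 by -0.47 on the log2 scale (edgeR q = 6.2e-05), with every sh#1 library below every sh#2 library.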

How the results depend on the processing

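The calls of AXL with sh#1 and of ERBB2 with sh#2 in culture held in all 15 alternatives each, while those of EPHA2 with sh#1 in culture (13 of 15) and MET with sh#2 in tumors (12 of 22) did not. In culture CDH11 KD had 0 receptors higher and 0 lower, but 1 and 2 with 3 groups in one model, where the calls over all genes went from 899 higher and 820 lower to 1630 and 1661 of 9859, and 1 lower with at least 10 counts in every library. In tumors MET with sh#2 was lost (0 higher) with no low-count filter and with the mouse to human covariate, and AXL was 1 call lower in sh#1 than in sh#2 with no filter. Leaving out 1 replicate gave 0 to 1 receptors higher in culture with CDH11 KD, sh#1 and sh#2, 0 to 1 lower with CDH11 KD, and in tumors 0 to 1 higher with sh#2 and 0 to 1 lower in sh#1 than in sh#2. DESeq2 called 6 pathway genes lower in CDH11 KD cells, against 10, and no filter called 3 higher in tumors, against 0. Of 1182 receptor values under alternatives, 77 changed sign, none of them past a threshold, and the cause was not tested.

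These were values near 0. Upper quartile normalization gave FGFR1 in culture -0.00541 with CDH11 KD and -0.0324 with sh#2, and EGFR in tumors -0.0098. No filter gave MET 0.00619 with sh#1 in culture and EGFR -0.0235 in tumors. At least 10 counts gave FGFR1 -0.0141 with sh#2 in culture and EGFR -0.00272 in tumors, and a fit of only the 2 groups gave FGFR1 -0.000175. The covariate gave EGFR -0.0273 with CDH11 KD and -0.000706 with sh#1, and FGFR1 -0.00722. The replicate numbers were not taken as pairs. Correlations of deviations from the group means were over 0.1 in 1 of 9 same-number pairs in culture and 3 of 15 in tumors. Among pairs of different number they were over 0.1 in 1 of 18 and 13 of 60. Whether libraries of the same number were handled together was not tested. The replicate block gave DDR1 -0.000541 with sh#1 and EGFR 0.0047 with sh#2 in tumors, and changed no count of receptors called.

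With 1 replicate left out, values in culture with CDH11 KD ran from -0.00519 to 0.0559 for FGFR1, -0.10 to 0.0335 for MET and -0.14 to 0.0465 for DDR1. With sh#1 they ran from -0.00997 to 0.10 for FGFR1, -0.0907 to 0.0801 for MET and -0.0559 to 0.16 for DDR1, and with sh#2 from -0.058 to 0.0473 for FGFR1, -0.12 to 0.0371 for MET and -0.0617 to 0.051 for AXL. Between the hairpins they ran from -0.0191 to 0.10 for FGFR1 and -0.0491 to 0.11 for MET. In tumors with CDH11 KD they ran from -0.0753 to 0.14 for EGFR, -0.0226 to 0.16 for AXL and -0.00401 to 0.27 for DDR1. With sh#1 they ran from -0.0962 to 0.16 for EGFR and -0.13 to 0.18 for DDR1, and with sh#2 from -0.0966 to 0.12 for EGFR, -0.0888 to 0.0308 for FGFR1 and -0.0497 to 0.17 for EPHA2. Between the hairpins the range was -0.082 to 0.13 for EGFR. The difference between the systems ran from -0.13 to 0.00591 for FGFR1 and -0.0404 to 0.14 for IGF1R. The tumor libraries were shallower than those of culture, and ERBB2, ERBB3 and FGFR3 did not pass the low-count filter there.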
